A study of Mus musculus with 8 samples.

Results

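Open chromatin was examined at 3 genes that are used as marks of blood stem cells, Prdm16, Fgd5 and Procr, in 2 sorted subpopulations of mouse MPP2 cells. Members were all peaks of a table of 134473 ATAC-seq peaks that overlapped chr4:153680000-154020000 (Prdm16), chr6:91925000-92035000 (Fgd5) or chr2:155565000-155590000 (Procr) in the mm9 build. They numbered 39, 10 and 5, or 54 peaks in all. The rule uses positions and no measured value, though these genes were chosen with earlier results of the data known. The cells came from bone marrow of C57BL/6 mice aged 8 to 12 weeks and were sorted as LSK cells (negative for lineage markers, positive for Sca1 and Kit) without Flt3 and with CD150 and CD48. In the Vwf+Gata1+ group the cells were sorted as positive for both Vwf and Gata1, and in the Vwf-Gata1+ group as negative for Vwf and positive for Gata1. All cells therefore shared the MPP2 gate and the Gata1 gate, and no cells outside it were measured. Each group had 4 libraries of 500 cells. Separate mice are not named for the libraries, so the p-values here speak of the scatter among libraries, which may be technical in part. The sources used here do not say how Vwf and Gata1 were read in the sort, and the sort labels were not checked against peaks at these or other marker genes.

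MPP2 cells are multipotent progenitors that descend from blood stem cells and lean toward the megakaryocyte and red cell lineages. Prdm16 encodes a zinc finger transcription regulator that maintains blood stem cells and is also known from brown fat. Fgd5 encodes an exchange factor for the small GTPase Cdc42 and is known from endothelium, and reporters at its locus mark mouse blood stem cells. Procr encodes the endothelial protein C receptor, a surface protein by which mouse stem cells are sorted. ATAC-seq inserts adapters into open DNA, so the signal of a peak reports how accessible that stretch was in the sorted population, not how much RNA or protein its gene made. In such a bulk measurement, fewer open cells and less opening per cell cannot be told apart.

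A peak of the table held the start of Prdm16 and another held the start of Procr, as placed in mm9 by the choice of windows (154011000 and 155576800). The promoter sequences of both genes are shown because a peak held each start. They are RefSeq sequences of the GRCm38.p6 build, another build than that of the peaks, at chr4:154636824-154637123 on the minus strand for Prdm16 and at chr2:155750967-155751266 on the plus strand for Procr. Each runs from 250 bases before to 50 bases after the gene's start, and these coordinates cannot be set against those of the peaks. Capitals mark matches to any of 5 motifs searched on both strands.
Prdm16: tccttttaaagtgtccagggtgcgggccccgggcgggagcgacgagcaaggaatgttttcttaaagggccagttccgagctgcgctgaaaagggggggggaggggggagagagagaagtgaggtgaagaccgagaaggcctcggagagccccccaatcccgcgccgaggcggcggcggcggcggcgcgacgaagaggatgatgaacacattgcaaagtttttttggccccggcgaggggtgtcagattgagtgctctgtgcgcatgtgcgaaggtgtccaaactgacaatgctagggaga
Procr: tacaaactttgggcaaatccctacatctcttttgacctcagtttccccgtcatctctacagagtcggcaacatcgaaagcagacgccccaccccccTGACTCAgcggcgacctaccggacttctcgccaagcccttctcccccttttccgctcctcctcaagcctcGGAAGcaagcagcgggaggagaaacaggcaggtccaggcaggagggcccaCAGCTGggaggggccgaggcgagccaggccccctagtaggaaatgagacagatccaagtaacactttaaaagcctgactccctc
The motifs were GATAA (GATA factors), GGAAG (ETS factors), TGTGGT (RUNX factors), CAGCTG (an E-box) and TGACTCA (AP-1). None of these letters occurred in the Prdm16 window. The Procr window held 1 match each to the AP-1, ETS and E-box letters, and no matches overlapped. They lay at -154 (AP-1), -84 (ETS) and -34 (E-box) from the RefSeq start. In mm9 the Procr peak began at 155576732, close to the start, so these letters were not placed inside or outside it. Of 32851 promoters of the same length in the table, 5.20% held the AP-1 letters, 71.4% the ETS letters, 16.3% the E-box, 25.4% the GATA letters and 16.8% the RUNX letters. The Fgd5 promoter, not shown since no start was placed for this gene in mm9, had 1 match to GGAAG and none to the others. Its GC content was 71.3%, against 61.0% for Prdm16, 58.3% for Procr and a median of 52.7% over all promoters.

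Total counts in peaks ran from 4628997 to 7753538 per library. Signal is given in CPM, which is a count relative to its library's TMM-scaled total over the tested peaks. Mean ± SD is taken over 4 libraries unless stated. Levels of peaks of different width are compared in CPM per kb of peak. Peaks with too few counts to test were left out across the whole table, which kept 97040 peaks and 48 of the 54 members: 35 of 39 at Prdm16, 9 of 10 at Fgd5 and 4 of 5 at Procr. The quasi-likelihood test of edgeR was run over all 97040 peaks with Benjamini-Hochberg adjustment. A log2 fold change above 0 stands for more signal in Vwf+Gata1+ than in Vwf-Gata1+ cells.

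With group as the only term of the fit, no peak of the 3 loci passed an adjusted p of 0.05 between Vwf+Gata1+ and Vwf-Gata1+ cells: edgeR called 0 of 48 tested members, beside 0.0144% of all tested peaks. Limma-voom with quality weights also called 0. DESeq2 called 0 of the 35 members to which it gave an adjusted p, and it gave none to 13 others, the Fgd5 peak of 305 bp described later among them. At an unadjusted p under 0.05 edgeR had 5 members, 1 with more signal in Vwf+Gata1+ cells and 4 with less, beside 6.72% of all tested peaks (3.52% with more and 3.2% with less). Without 1 library at a time this count ran from 2 to 5. It was 2 when replicate 2 of Vwf+Gata1+ cells was left out, and 3 without replicate 3 or 4 of Vwf+Gata1+ or replicate 1 or 3 of Vwf-Gata1+ cells. DESeq2 had 2 such members and limma-voom 5, beside 3.47% and 7.49% of all tested peaks. The libraries of the groups did not overlap at 5 of the 48 tested members, 1 with more signal in Vwf+Gata1+ cells and 4 with less, against 3.88% of all tested peaks (1.81% and 2.07%). With 48 members, shares that rest on 5 peaks are no result about the loci as a whole. The median log2 fold change was -0.04 over the tested Prdm16 peaks, 0.01 over those of Fgd5 and -0.17 over those of Procr, and 0.00 over all tested peaks. Of the 48 members, 43 had a 95% interval of the fold change within 2-fold either way, beside 85.6% of all tested peaks.

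**Figure D1:**
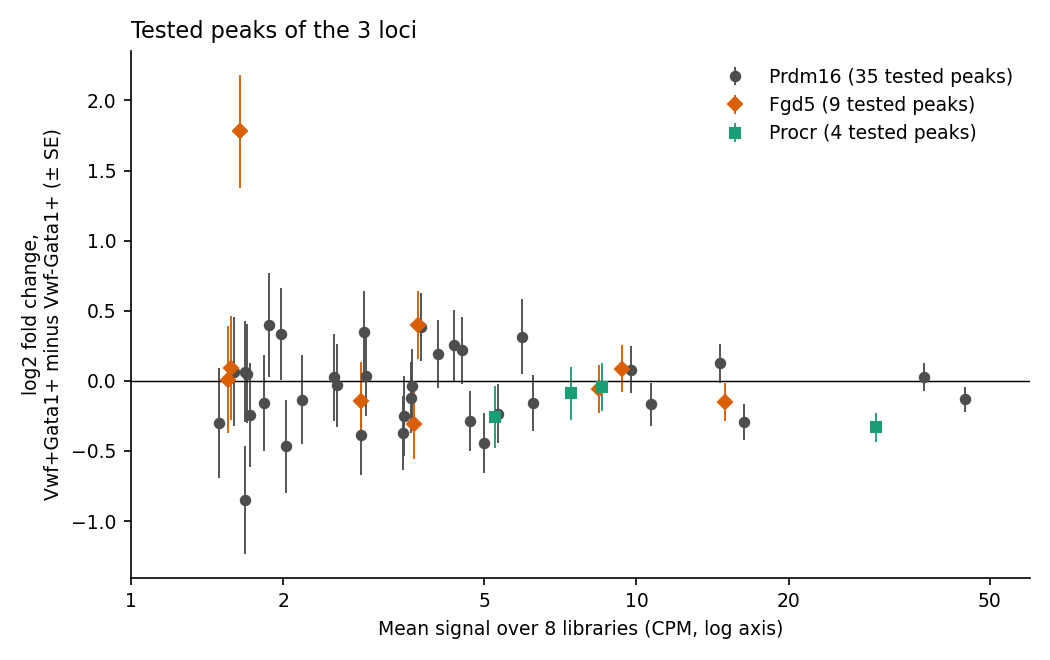
Log2 fold change of each of the 48 tested peaks (vertical axis, Vwf+Gata1+ minus Vwf-Gata1+, bars ± SE) against its mean signal over 8 libraries (horizontal axis, CPM, log scale), with symbols for the locus. The points scatter around 0, except 1 weak Fgd5 peak at 1.78.

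At the Prdm16 locus both subpopulations had open sites spread along the gene, with strong peaks at the start and 94.6 kb inside it. The 39 peaks lay in a window of 340 kb, 38 of them within the stretch given for the gene (153690200 to 154011000) and 1 beyond its end. Prdm16 is read on the minus strand, per RefSeq, so its start lies at the higher coordinate. In RefSeq (GRCm38.p6) 4 other genes lie inside Prdm16: Gm52688, Gm13133, Gm52689 and 5930403L14Rik. To which gene each peak belongs was not tested. Peak widths ran from 200 to 1862 bp and mean signal over 8 libraries from 0.936 to 44.6 CPM. Signal was spread unevenly: 13 peaks had under 2 CPM and 5 had at least 10 CPM. The strongest 2 peaks together held 35.7% of the signal of the locus.

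The strongest Prdm16 peak, 1862 bp wide and centred 94.6 kb from the start (153915519 to 153917380), had more signal than all but 3.23% of the peaks in the table. It measured 41.6, 45.8, 38.3 and 44.3 CPM in replicates 1 to 4 of Vwf+Gata1+ cells and 44.4, 50.6, 46.0 and 45.8 CPM in those of Vwf-Gata1+ cells. The groups overlapped, and the only libraries under 44 CPM were replicates 1 and 3 of Vwf+Gata1+ cells. In edgeR this was -0.13 ± 0.09 on the log2 scale (SE), with an unadjusted p of 0.149 and an adjusted p of 0.839. At this depth the 95% interval ran from 0.804-fold to 1.04-fold.

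The peak that held the start of Prdm16, 1690 bp wide (154009437 to 154011126), was the second strongest. It had 35.6, 33.2, 43.5 and 37.7 CPM in Vwf+Gata1+ cells and 32.9, 34.0, 39.2 and 40.7 CPM in Vwf-Gata1+ cells. The groups overlapped almost completely, with group means of 37.5 ± 4.42 and 36.7 ± 3.83 CPM. The difference in edgeR was 0.03 ± 0.10 on the log2 scale (SE; adjusted p = 0.984), with a 95% interval of 0.886-fold to 1.17-fold. Its sign changed when replicate 3 of Vwf+Gata1+ cells was left out (-0.04), and also when replicate 1 or 2 of the other group was. Of all members tested, this stretch and the peak at 94.6 kb rested on the most counts, 167 to 340 per library.

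Per kb of peak, the order at Prdm16 was led by the same peaks: 24.0 ± 1.92 CPM per kb at 94.6 kb, 22.0 ± 2.28 at the start and 18.9 ± 2.67 at a peak 105 kb from the start (SD over 8 libraries). The first and second did not differ beyond their spread, while the third lay below the second by slightly more than either SD. By total CPM the third peak had 16.3 CPM. By distance from the start, in steps chosen after the values were seen, 5 peaks within 25 kb held 23.0% of the signal of the locus. The next 25 kb held 2 weak peaks with 1.48%. Between 50 and 125 kb lay 15 peaks with 49.6%, in a stretch 3 times as long as the first. Both stretches held 2.0 peaks per 10 kb, and the median signal of their peaks was 13.7 CPM per kb in the first and 7.48 in the longer one. Farther on, 7 peaks up to 200 kb held 11.6% and 10 peaks past 200 kb held 14.3%. The longest stretch without a peak was 40.8 kb, from 153709557 to 153750313, in the far part of the gene.

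**Figure D2:**
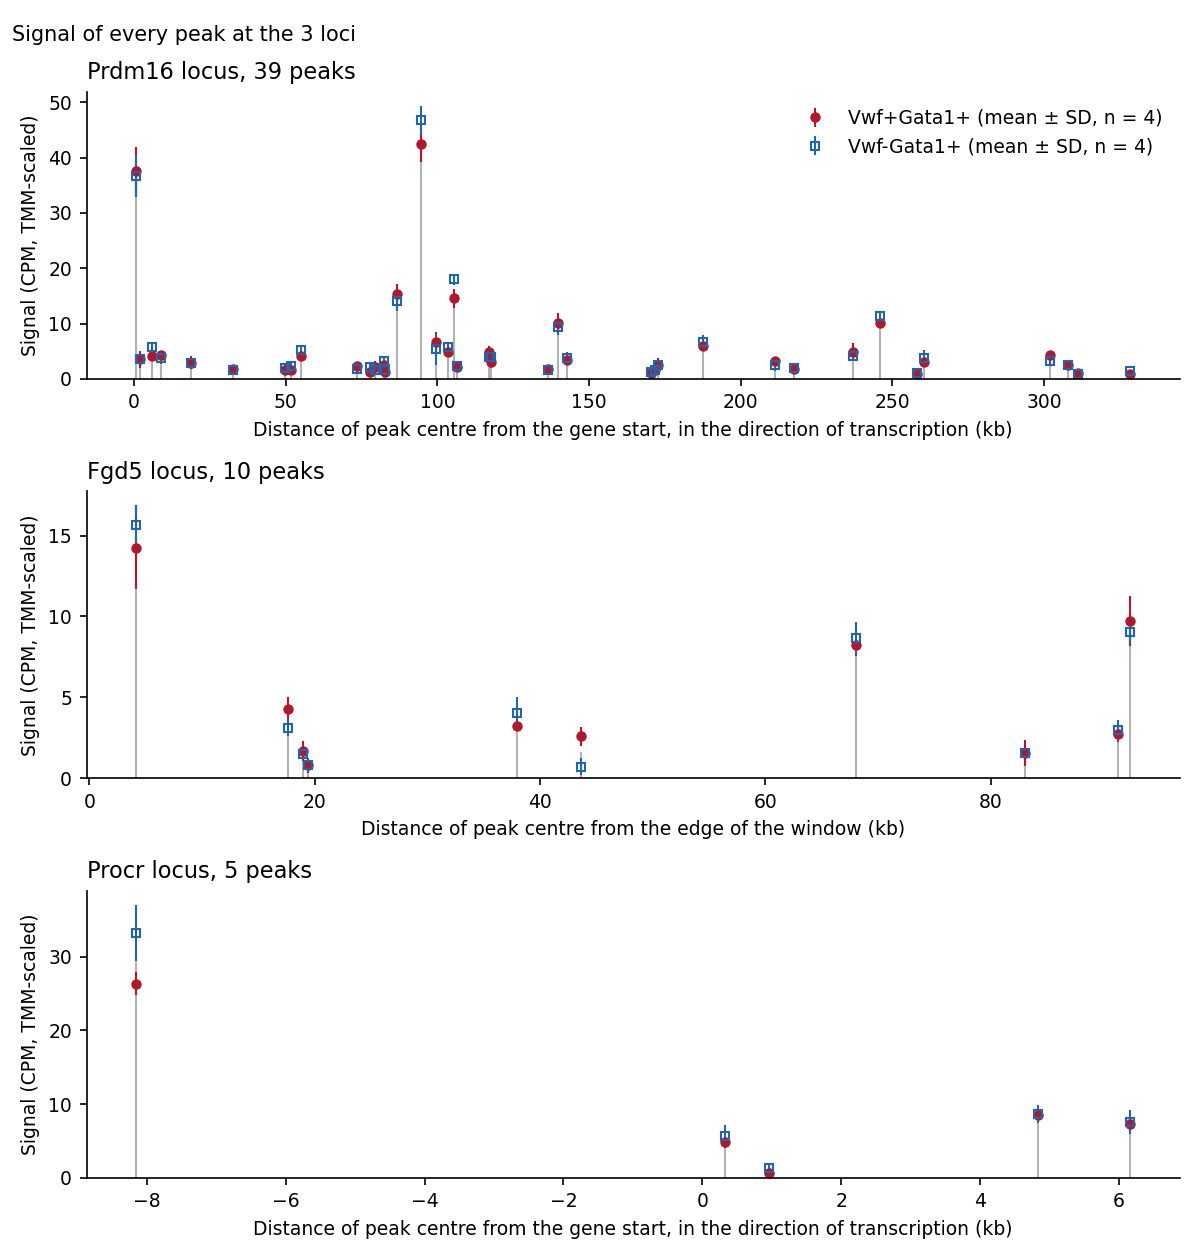
Signal (CPM, vertical axes) of every peak at the 3 loci, by distance of the peak centre from the gene start (Prdm16 and Procr) or from the edge of the window (Fgd5), in kb. Filled and open symbols are group means and bars SD over 4 libraries. The groups coincide at most peaks, with the strongest Prdm16 peaks at the start and at 94.6 kb and the strongest peak of the Procr window 8.15 kb before the gene.

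At Prdm16, 19 of the 35 tested peaks had a log2 fold change below 0 and 16 above 0, from -0.85 to 0.40, and 49.3% of all tested peaks were below 0. An edgeR unadjusted p under 0.05 was reached by 3 of the 35, beside 6.72% of all tested peaks (3.2% with less signal in Vwf+Gata1+ cells). All 3 had less signal in Vwf+Gata1+ cells and none passed the adjusted threshold. A share that rests on 3 peaks is no result about the locus. The peak 105 kb from the start (153905127 to 153905988, 862 bp) had 15.7, 14.3, 12.1 and 16.1 CPM in Vwf+Gata1+ cells and 19.2, 17.4, 18.5 and 17.1 CPM in Vwf-Gata1+ cells. All 4 Vwf+Gata1+ libraries lay below the 4 others, the closest by about 1 CPM. The log2 fold change was -0.29 ± 0.13 (SE; edgeR unadjusted p = 0.0275, adjusted p = 0.692). Without 1 library at a time the edgeR unadjusted p ran from 0.0218 to 0.0903, and the DESeq2 unadjusted p was 0.0567. The peak lies in the stretch between 50 and 125 kb that also holds the strongest peak of the locus.

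A weak peak of 261 bp, 77.6 kb from the start (153933270 to 153933530), had 1.71, 0.188, 1.6 and 1.15 CPM in Vwf+Gata1+ cells and 1.83, 2.0, 2.93 and 2.04 CPM in Vwf-Gata1+ cells. These values rest on 1 to 15 counts per library, and replicate 2 of Vwf+Gata1+ cells had the 1 count. Its log2 fold change was -0.85 ± 0.38 (SE; edgeR unadjusted p = 0.0330, adjusted p = 0.713). Without that library it was -0.54, with an unadjusted p of 0.152 and an adjusted p of 0.910 in edgeR.

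Nearer to the start, a peak of 331 bp at 5.89 kb (154004949 to 154005279) had 5.40, 3.94, 3.21 and 4.17 CPM in Vwf+Gata1+ cells and 6.27, 5.69, 5.07 and 6.13 CPM in Vwf-Gata1+ cells. Here the groups overlapped, since replicate 1 of Vwf+Gata1+ cells lay above replicate 3 of Vwf-Gata1+ cells. The log2 fold change was -0.44 ± 0.21 (SE; edgeR unadjusted p = 0.0445, adjusted p = 0.734). With single libraries left out the edgeR unadjusted p ran from 0.0152 to 0.114, and the DESeq2 unadjusted p was 0.0896. A further Prdm16 peak was without overlap but not at an unadjusted p under 0.05, and is named after its values were seen. It lay 55.1 kb from the start (153955425 to 153956304), with 4.21 ± 0.248 against 5.15 ± 0.660 CPM (edgeR unadjusted p = 0.184, adjusted p = 0.855).

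In the other direction, the Prdm16 peaks with the highest log2 fold changes reached no such p. They were a narrow peak at 79.5 kb (153931343 to 153931677), with 2.20 ± 1.05 against 1.55 ± 0.618 CPM, and a peak of 787 bp at 302 kb (153708771 to 153709557), with 4.26 ± 0.458 against 3.24 ± 0.663 CPM. Their log2 fold changes were 0.40 ± 0.37 and 0.38 ± 0.24 (SE; edgeR adjusted p = 0.902 and 0.818). The first of these values moved with single libraries: it was 0.10 without replicate 3 of Vwf+Gata1+ cells, 0.15 without replicate 4 of Vwf-Gata1+ cells, and 0.64 and 0.66 without replicate 1 of Vwf+Gata1+ and of Vwf-Gata1+ cells. The peak at 79.5 kb lies within 2 kb of the weak peak at 77.6 kb, whose log2 fold change had the opposite sign. A peak of 317 bp at 51.6 kb (153959291 to 153959607) had 1.67 ± 0.672 against 2.38 ± 0.718 CPM. Its log2 fold change estimated by edgeR was -0.47 ± 0.33 (SE; edgeR adjusted p = 0.846). It was -0.75 and -0.28 when replicate 1 and replicate 2 of Vwf+Gata1+ cells were left out in turn, and -0.22 without replicate 1 of Vwf-Gata1+ cells.

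The Fgd5 locus held the largest difference among the members, at 1 weak and narrow peak, while its stronger peaks had group means close to each other. The 10 peaks lay in a window of 110 kb, with widths from 217 to 1701 bp and mean signal from 0.814 to 15.0 CPM. No start of Fgd5 was placed in mm9 here, so these peaks are given by position only. No Fgd5 peak was among the strongest 10% of the table, whether by CPM or by CPM per kb.

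The peak with the difference was 305 bp wide (91968463 to 91968767). It had 19, 12, 15 and 15 counts in replicates 1 to 4 of Vwf+Gata1+ cells and 5, 2, 2 and 10 counts in those of Vwf-Gata1+ cells. In CPM these were 2.50, 2.25, 3.44 and 2.16 against 0.653, 0.308, 0.390 and 1.46. Every Vwf+Gata1+ library lay above every Vwf-Gata1+ library, and replicate 4 of Vwf-Gata1+ cells came closest. Group means were 2.59 ± 0.586 and 0.703 ± 0.526 CPM. The log2 fold change estimated by edgeR was 1.78 ± 0.40 (SE). Its 95% interval of 1.95-fold to 6.05-fold is not adjusted for the number of tests. The edgeR unadjusted p was 7.99e-05, which ranked 68 among 97040 peaks, and the adjusted p of 0.113 did not pass. Without 1 library at a time the log2 fold change ran from 1.54 to 2.40 and the edgeR adjusted p from 0.0671 to 0.406, so no single library carried the difference and none of these fits made the call. With the replicate number as a block the peak was called (edgeR adjusted p = 0.0116), beside 0.527% of all tested peaks. The labels do not explain these numbers, and they were not taken as pairs. The next peak on the lower side lay at 91962512 to 91963431, with 3.23 ± 0.319 against 4.04 ± 1.01 CPM (log2 fold change -0.31 ± 0.25, SE; edgeR adjusted p = 0.877). That value was -0.19 without replicate 1 and -0.47 without replicate 4 of Vwf-Gata1+ cells. On the higher side no peak followed for 24.0 kb, the longest such gap in the window. At the peaks on either side the groups overlapped.

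**Figure D3:**
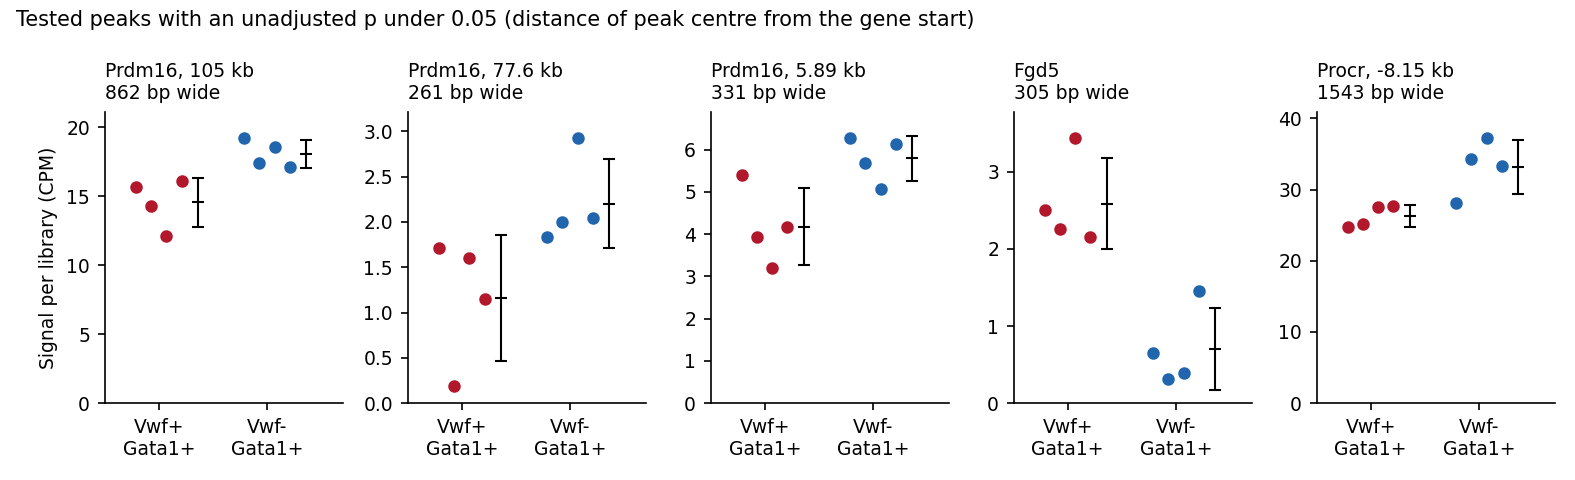
Signal per library (CPM, vertical axes) of the 5 tested members with an unadjusted p under 0.05, points for the 4 libraries of each group with mean ± SD beside them. As a fold, the groups stand farthest apart at the Fgd5 peak of 305 bp, where the Vwf-Gata1+ libraries lie at or under 1.46 CPM.

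The strongest and widest Fgd5 peak, 1701 bp at the low end of the window (91928333 to 91930033), had 14.2, 11.4, 17.6 and 13.7 CPM in Vwf+Gata1+ cells and 17.0, 16.1, 15.4 and 14.2 CPM in Vwf-Gata1+ cells. The groups overlapped, and replicate 3 of Vwf+Gata1+ cells had the highest value of all 8. Its log2 value in edgeR was -0.15 ± 0.14 (SE; adjusted p = 0.899), with a 95% interval of 0.741-fold to 1.09-fold. Without replicate 2 and replicate 3 of Vwf+Gata1+ cells it was -0.07 and -0.25. Toward the high end of the window, the peak at 92017011 to 92017683 had 9.73 ± 1.56 against 9.02 ± 0.672 CPM. The peak at 91992745 to 91993404 had 8.22 ± 0.677 against 8.64 ± 1.0 CPM. Neither difference of means exceeded the larger of its SDs.

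Per kb, the order at Fgd5 was another one than by CPM, because the strongest peak is wide. The leading values were 13.9 ± 1.75 CPM per kb at 92017011, 12.8 ± 1.25 at 91992745 and 12.4 ± 2.40 at a narrow peak of 230 bp (92016130 to 92016359), and these did not differ beyond their spread (SD over 8 libraries). The widest peak had 8.79 ± 1.18 CPM per kb, below them by more than its SD. The narrow peak had 2.73 ± 0.505 against 2.97 ± 0.648 CPM between groups (edgeR adjusted p = 0.967), and its log2 fold change, -0.14, was 0.04 without replicate 1 of Vwf-Gata1+ cells. A peak of 675 bp at 91942296 to 91942970 had the second highest log2 fold change of the locus, 0.40 ± 0.24 (SE; edgeR adjusted p = 0.816), with 4.26 ± 0.745 against 3.13 ± 0.531 CPM.

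In the Procr window the largest share of the signal came from 1 wide peak ahead of the gene, and there the Vwf+Gata1+ libraries lay below the Vwf-Gata1+ libraries without passing the adjusted threshold. The window of 25 kb held 5 peaks. The wide peak, 1543 bp and centred 8.15 kb before the start of Procr (155567876 to 155569418), held 57.2% of their signal and was exceeded by 6.42% of all peaks in CPM. In the gene order of RefSeq (GRCm38.p6), Edem2 precedes Procr and Mmp24 follows it. To which gene this peak belongs was not tested.

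The wide peak had 24.8, 25.1, 27.5 and 27.7 CPM in Vwf+Gata1+ cells and 28.1, 34.3, 37.2 and 33.3 CPM in Vwf-Gata1+ cells. The groups did not overlap, although replicate 1 of Vwf-Gata1+ cells lay within 1 CPM of the highest Vwf+Gata1+ library. Group means were 26.3 ± 1.56 and 33.2 ± 3.81 CPM. The log2 fold change estimated by edgeR was -0.33 ± 0.10 (SE; edgeR unadjusted p = 0.00260, adjusted p = 0.399). With 120 to 228 counts per library, the 95% interval ran from 0.687-fold to 0.918-fold, not adjusted for the number of tests. Over the fits without 1 library the log2 fold change ran from -0.41 to -0.28 and the edgeR adjusted p from 0.205 to 0.690. With the replicate number as a block the log2 fold change was -0.32 and the edgeR adjusted p 0.0572, still short of the threshold.

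The peak that held the start of Procr, 788 bp wide (155576732 to 155577519), had a mean of 5.26 CPM over 8 libraries. In CPM it was exceeded by 31.9% of all peaks. It had 4.21, 4.13, 5.50 and 5.46 CPM in Vwf+Gata1+ cells and 7.71, 4.00, 5.66 and 5.40 CPM in Vwf-Gata1+ cells. The groups overlapped, and replicate 1 of Vwf-Gata1+ cells stood highest. On the log2 scale the difference was -0.26 ± 0.22 (SE; edgeR adjusted p = 0.888). It was -0.05 without replicate 1 and -0.40 without replicate 2 of Vwf-Gata1+ cells. By CPM per kb this start peak, at 6.67, was near the median of all peaks (6.73), whereas the start peak of Prdm16 had 22.0. A narrow peak just behind it (155577638 to 155577895, 258 bp) had 3 to 13 counts per library and was not tested. Its signal was 0.690 ± 0.0949 against 1.30 ± 0.494 CPM.

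Farther behind the Procr start lay 2 peaks with nearly equal group means. At 4.83 kb (155581461 to 155581806, 346 bp) the libraries had 8.30, 8.63, 9.40 and 7.62 CPM in Vwf+Gata1+ cells and 7.84, 9.53, 7.41 and 9.78 CPM in Vwf-Gata1+ cells, and the groups overlapped fully. Although narrow, this peak had the highest signal per kb of all 54 members, 24.8 ± 2.66 CPM per kb (SD over 8 libraries), beside 19.3 ± 2.97 for the wide peak. The strongest Prdm16 peak, at 24.0, did not differ from it beyond the spread. At 6.16 kb (155582617 to 155583307, 691 bp) the signal was 7.25 ± 1.06 against 7.58 ± 1.59 CPM. The log2 fold changes were -0.04 ± 0.17 and -0.09 ± 0.19 (SE; edgeR adjusted p = 0.985 and 0.969), with 95% intervals of 0.766-fold to 1.23-fold and 0.722-fold to 1.22-fold. Both changed sign without replicate 4 of Vwf+Gata1+ cells, the first also without replicate 2 or 4 and the second without replicate 1 of Vwf-Gata1+ cells.

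Summed over all its peaks, Prdm16 had 223, 211, 227 and 234 CPM in replicates 1 to 4 of Vwf+Gata1+ cells and 237, 238, 222 and 237 CPM in those of Vwf-Gata1+ cells. The groups overlapped, at 224 ± 9.66 and 234 ± 7.66 CPM. Fgd5 had 47.5, 45.8, 56.8 and 46.0 CPM against 51.8, 47.0, 48.2 and 45.1 CPM. Its groups overlapped too, and replicate 3 of Vwf+Gata1+ cells stood above the other 7 libraries. Procr had 45.2, 46.9, 50.7 and 47.4 CPM against 54.2, 55.0, 58.5 and 57.9 CPM. At this locus the groups did not overlap, and the ratio of group means was 0.843 of Vwf+Gata1+ over Vwf-Gata1+ cells. These sums are scores over chosen peaks and were not tested, and the wide peak ahead of Procr supplies most of the sum there. How often the groups do not overlap in sums over other windows of equal length was not counted.

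**Figure D4:**
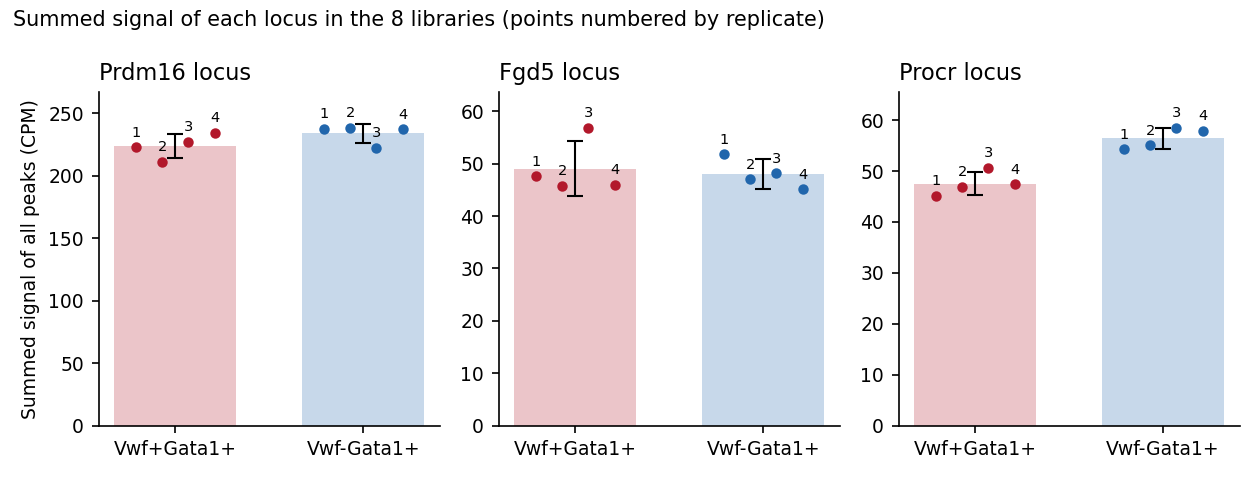
Signal summed over all peaks of each locus (CPM, vertical axes) in the 8 libraries. Bars are group means, error bars SD over 4 libraries, and points are libraries numbered by replicate. The groups overlap at Prdm16 and Fgd5 and do not overlap at Procr.

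Beside the rest of the table, all 3 loci lay above the median stretch of equal length in peaks and summed signal, and Procr also above the upper quartile in both, while 24 of the 54 members exceeded the median peak in signal per kb. Tiles of 340 kb along the autosomes that held a peak had a median of 16 peaks (quartiles 4 and 33) and 90.0 CPM (12.0 and 243), against 39 peaks and 229 CPM at Prdm16. Tiles of 110 kb had a median of 7 peaks (2 and 13) and 33.2 CPM (6.13 and 95.1), against 10 peaks and 48.5 CPM at Fgd5, which lay inside the quartiles. Tiles of 25 kb had a median of 2 peaks (1 and 4) and 9.23 CPM (2.82 and 29.0), against 5 peaks and 52.0 CPM at Procr. The windows of equal length that adjoin Prdm16 held 302 and 357 CPM, more than the locus. Those that adjoin Fgd5 held 45.2 and 128 CPM, and those that adjoin Procr 25.1 and 22.6 CPM. The second windows before and after held 68.7 and 674 CPM around Prdm16 and 22.0 and 56.8 CPM around Fgd5. Around Procr they held 55.8 CPM, more than the locus, and 10.2 CPM. In CPM, 32 of the 54 exceeded the median of all peaks (2.78). Over the 2 windows of equal length on each side, the ratio of group means (Vwf+Gata1+ over Vwf-Gata1+) ran from 1.03 to 1.11 around Prdm16, beside 0.958 at the locus. Around Fgd5 it ran from 1.03 to 1.11, beside 1.02. Around Procr, where these windows held 3 to 5 peaks each, it ran from 0.923 to 1.11, beside 0.843. These comparisons are descriptions of the same libraries, with no test.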

How the data were processed

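The authors deposited raw counts of 134473 peaks in 8 libraries. The submitters' processing notes name mm9 as build and MACS2, Bowtie2, Picard, SAMtools, Trim Galore and FastQC as tools, with no versions, roles or order. Libraries followed Omni-ATAC and Nextera procedures, per the labels' protocols. The sources used here do not say whether counts are reads or fragments, or how insertions were shifted and duplicates treated.

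Groups were taken from the labelled cell type and replicate numbers from the titles. Members and lists were chosen with earlier results of these data known. No mm9 annotation was used, so peaks are not assigned to exons, introns or untranslated regions. Peaks passed edgeR's filterByExpr (minimum count 10, minimum total 15), which kept 97040 peaks (72.2%) with 96.3% of counts. After TMM scaling, edgeR's quasi-likelihood test was applied with robust dispersion estimates with Benjamini-Hochberg adjustment of p over all tested peaks. SE was derived as the size of the log2 estimate divided by the root of F, and 95% intervals use the test's degrees of freedom. Levels of untested members use the same scaling. Libraries of a group differed beyond sampling noise (chi-square per degree of freedom 1.32 to 2.13), so all were kept. The test was checked on simulated data with changes larger than those at most named peaks, so the check does not cover smaller ones. Named peaks were the 3 strongest per locus by CPM and by CPM per kb, those at a start, those at an unadjusted p under 0.05, the 2 with the largest log2 fold change in each direction, the widest, and all 5 at Procr. Alternatives were RLE and total count scaling, no filter, a CPM of 1 in 4 libraries, non-robust dispersions, a replicate block, DESeq2, limma-voom, other thresholds and each library left out. Software was edgeR 4.0.16, DESeq2 1.42.0 and limma 3.58.1 under R 4.3.3, with matplotlib 3.10.9 under Python 3.11.15. RefSeq tables of GRCm38.p6 gave gene order and promoters, and all 3 symbols matched.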

Additional observations from a re-analysis of the deposited data

Results flagged for a closer look

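Of 46 sets of 4 libraries (3 locus sums and 20 named peaks in both groups), 2 held a library far from the others of its group. Chance flags about 1 in 20 such sets. Replicate 3 of Vwf+Gata1+ cells had 56.8 CPM summed over the Fgd5 locus, while the other 3 lay between 45.8 and 47.5 CPM. With it the log2 difference of the Fgd5 sum was 0.03, and without it -0.05. Replicate 3 of Vwf-Gata1+ cells had 222 CPM summed over the Prdm16 locus, while the other 3 lay between 237 and 238 CPM. The log2 difference of the Prdm16 sum was -0.06 with it and -0.09 without it. These were the libraries with the fewest counts of their groups, 4628997 and 5447813, and the part of depth in these values was not tested.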

How the results depend on the processing

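The count of members past an adjusted p of 0.05 in edgeR was 0, which fixes 0 at a threshold of 0.01 as well. It stayed 0 under RLE and total count scaling, no filter, the CPM minimum, non-robust dispersions, DESeq2 and limma-voom. It also stayed 0 at a threshold of 0.1 and without each library in turn. With the replicate number as a block it was 1, the Fgd5 peak of 305 bp (log2 fold change 1.78; edgeR adjusted p = 0.0116), beside 0.527% of all tested peaks. The labels do not explain the numbers, so the numbers were not taken as pairs. Same-numbered libraries correlated, as deviations from their group means, at 0.301 (replicate 1), 0.163 (2), 0.0740 (3) and 0.0103 (4). Their own number was the best match for 5 of 8 libraries, which is a hint of the data only. The cause was not tested. DESeq2 gave no adjusted p at this peak, and its unadjusted p was 0.000291. The count at an unadjusted p under 0.05 was 5, was 2 with DESeq2, and ran from 2 to 5 without 1 library. Leaving out replicate 2 of Vwf+Gata1+ cells gave 2, and leaving out replicate 3 or 4 of Vwf+Gata1+ or replicate 1 or 3 of Vwf-Gata1+ cells gave 3. The log2 fold changes of 15 of the 19 named and tested peaks kept their sign in 16 other fits. The other 4 changed sign without 1 library, with ranges of -0.0415 to 0.0820 at the Prdm16 start, -0.225 to 0.0401 at the narrow Fgd5 peak of 230 bp, and -0.0979 to 0.0208 and -0.207 to 0.00496 at the Procr peaks at 4.83 and 6.16 kb. Over 11 settings the log2 difference of the locus sums ran from -0.09 to -0.04 at Prdm16, from -0.05 to 0.06 at Fgd5, where it fell below 0 without replicate 3 of Vwf+Gata1+ or replicate 4 of Vwf-Gata1+ cells, and from -0.28 to -0.22 at Procr. Depth limits the weak members most: 18 of 54 had under 2 CPM.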

Other observations

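For the strongest peak of each locus, the tested peak elsewhere with the most similar log2 CPM over the 8 libraries was looked up by Pearson's r among 96992 peaks. For Prdm16 it was at 132734709 to 132735222 on chromosome 5 (r = 0.989), for Fgd5 at 25381967 to 25382749 on chromosome 12 (r = 0.977), and for the Procr window at 113694254 to 113695513 on chromosome 7 (r = 0.979). These are the highest of 96992 values over 8 libraries that all peaks share, so they describe the table and carry no test. Within a locus, the r of the other tested peaks with the strongest one ran from -0.77 to 0.67 at Prdm16 (median -0.02). It ran from -0.33 to 0.72 at Fgd5 (median 0.09) and from -0.25 to 0.14 at Procr (median 0.07). No such median was taken over all tested peaks.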
